A study of Mus musculus with 6 samples.

Results

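Collagens are extracellular matrix proteins built from chains that wind into triple helices. The mRNA of every collagen chain gene was compared between 2 groups of cells that had received an adenoviral vector. The study names them vascular smooth muscle cells. The members are the protein-coding genes whose symbol has the form of a collagen chain (Col, a type number, the letter a and a chain number). They came to 44 of the 54532 genes in the table, of which 11 encode fibrillar chains, 8 basement membrane chains and 25 chains of other types. RNA was sequenced in 6 libraries of mouse aortic smooth muscle cells, 3 that had received a control plasmid (Ad-Con, genotype labelled WT) and 3 a plasmid for overexpression of pyruvate dehydrogenase kinase 4 (Ad-PDK4, genotype labelled as overexpression). Per the study, the cells were primary cells freed with collagenase from the abdominal aortas of wild-type mice and grown over several passages, and both groups were treated with angiotensin II, a vasoconstrictor peptide, after the vector. Cells without angiotensin II were not analysed here. The methods describe a PDK4 sequence cloned into the pEnCMV vector with an HA tag, amplified with a primer pair that is also listed for the mouse gene, and whether the adenovirus carried this construct is not given in the sources used here. The comparison asked how PDK4 overexpression changes what these cells express.

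In the arterial wall, smooth muscle cells make much of the collagen. Type I and type III chains form the banded fibrils that bear load, type V chains start and limit those fibrils, and type IV chains form the sheet-like network of the basement membrane around each muscle cell. Type VI forms beaded microfilaments near the cell surface, the FACIT collagens (fibril-associated collagens with interrupted triple helices) decorate fibrils, and type VIII forms a short-chain network found in vessels.

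Values are FPKM, fragments scaled by gene length and library size, so that levels of different genes can be compared per length. Between 17588942 and 21861872 reads per library were recovered from the table, 1 read in a gene of 1 kb was worth 0.0453 to 0.0571 FPKM, and a count of 0 allows up to 3 reads (counting error only). Pdk4 itself was lower in the libraries labelled Ad-PDK4, at 7.67, 7.40 and 7.38 FPKM against 9.50, 10.4 and 10.1 in Ad-Con (log2 fold change -0.42 ± 0.06 SE, adjusted p = 0.00114). The groups did not overlap, and the direction is opposite to the label. Whether the Pdk4 row counts RNA from the insert is not given in the sources used here, so the group is called "the libraries labelled Ad-PDK4" throughout. Per the study the libraries of a group are biological replicates. The labels do not say that they came from separate cultures, and the p-values measure the spread between these libraries, which may be technical. In these bulk libraries fewer cells of a type and less RNA per cell cannot be told apart.

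Collagen mRNA was lower in the libraries labelled Ad-PDK4, and most of that difference lay in type I. Of the 44 chains, 25 had a mean of at least 0.5 FPKM over the 6 libraries and were tested with limma among all 13423 genes that passed this filter. At an adjusted p below 0.05, 17 chains were lower, where 20.8% of all tested genes were lower, and 5 chains were higher, where 21.8% of all tested genes were higher. The other 3 did not pass. The 17 lower chains include Col6a3 and Col4a4, which were under the filter minimum in the libraries labelled Ad-PDK4. The median log2 fold change was -0.28 over the 25 chains and -0.0031 over all tested genes. With a fold change of at least 2 as well, 3 chains were lower (Col1a1, Col6a3 and Col4a4) and 1 was higher (Col28a1), beside 2.68% and 3.95% of all tested genes. Col6a3 and Col4a4 passed the filter only through Ad-Con, where they are high, so nothing is read from that count. Without Ad-Con replicate 3 only 2 chains met this fold limit, Col1a1 and Col6a3: Col28a1 was then at 0.93, and Col4a4 fell under the filter, as it did without either of the other Ad-Con libraries. The groups did not overlap in 22 of the 25 chains, against 54.3% of all tested genes. The 22 include Col6a3, Col4a4 and Col11a2, which passed the filter only through the group where they are high. Nothing is read from their place in this count.

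**Figure D1:**
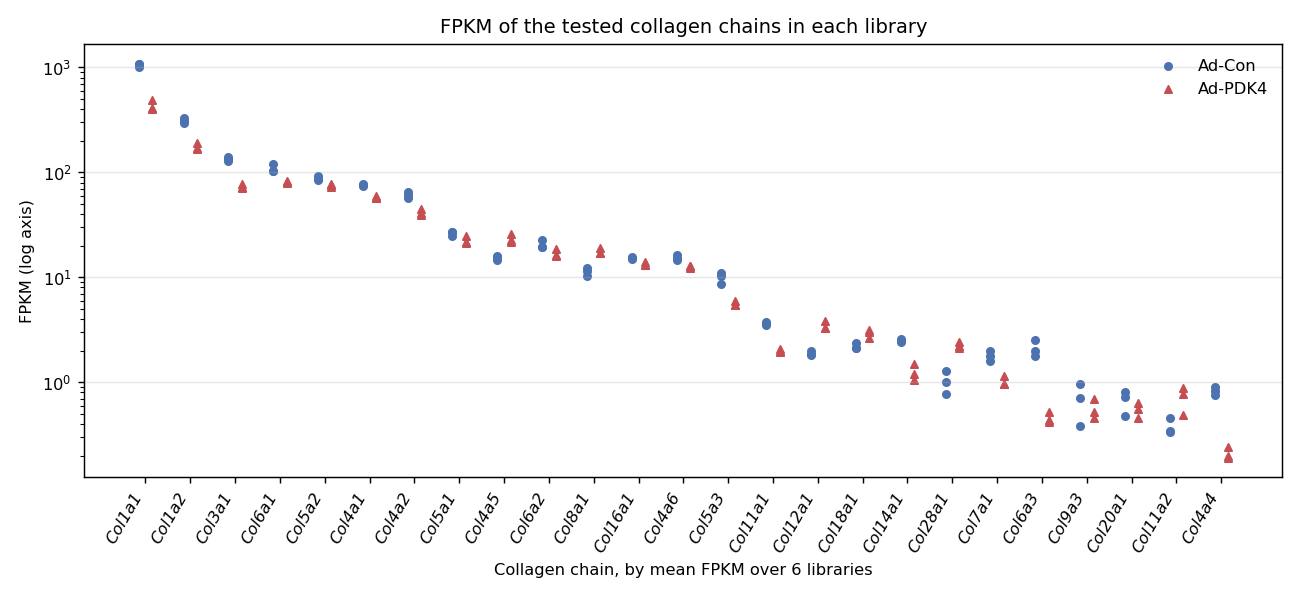
FPKM on a log axis (vertical) of each of the 25 tested collagen chains (horizontal, by mean level) in the 3 Ad-Con libraries (circles) and the 3 libraries labelled Ad-PDK4 (triangles). Col1a1 stands highest in both groups, and the groups overlap only for Col5a1, Col9a3 and Col20a1.

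**Figure D2:**
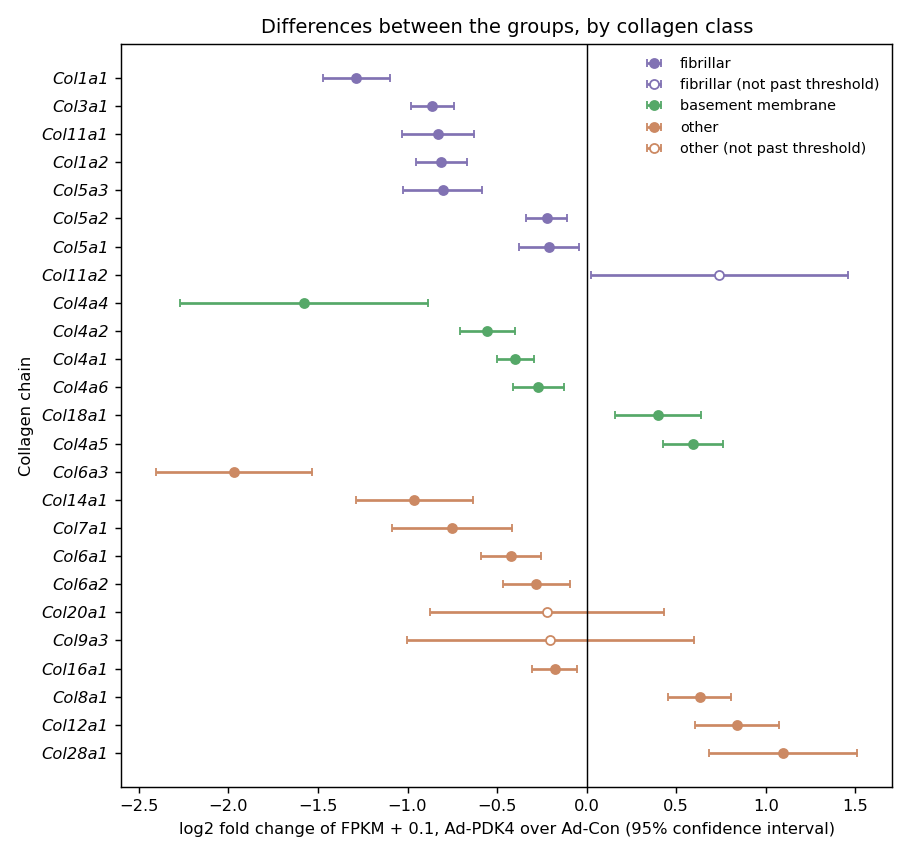
Log2 fold change of FPKM + 0.1 in the libraries labelled Ad-PDK4 over Ad-Con (horizontal, bars are 95% confidence intervals) for the 25 tested chains (vertical), coloured by class. Filled points passed an adjusted p of 0.05, and all 7 of the called fibrillar chains lie left of 0.

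The fibrillar chains that passed the test were all lower: 7 of the 8 tested, beside 20.8% of all tested genes, with a median log2 fold change of -0.81 over the 8. Col1a1, the main chain of type I collagen (gene at chr11:94936224-94953042, plus strand, on GRCm38 as are the genes below), was measured at 1086, 1073 and 1007 FPKM in Ad-Con and at 409, 492 and 404 FPKM in the libraries labelled Ad-PDK4. Every Ad-Con library exceeded every library of the other group. The fitted difference between the groups was a factor of 2.44 (log2 fold change -1.28 ± 0.08 SE, adjusted p = 1.3e-05). Among all genes of the table Col1a1 ranked 20, 22 and 25 in Ad-Con and 70, 51 and 72 in the libraries labelled Ad-PDK4. Col1a2 (chr6:4504814-4541544, plus strand), its partner chain in type I collagen, went from 308, 327 and 297 FPKM to 169, 190 and 173 FPKM, again without overlap (log2 fold change -0.81 ± 0.06 SE, adjusted p = 3.6e-05). Col3a1, which forms type III collagen from a single kind of chain and is the main collagen of distensible vessels beside type I, went from 135, 140 and 128 FPKM to 71.8, 77.1 and 72.7 FPKM, and here too the groups lay apart (log2 fold change -0.86 ± 0.05 SE, adjusted p = 1.2e-05). These 3 chains kept their call and direction in all 16 alternatives run.

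The sequence upstream of Col1a2 and Col3a1 is shown because these are the most abundant chains with a window in the RefSeq promoter table, which covered 35 of the 44 chains and 20 of the 25 tested. Each window holds 250 bases before and 50 after the RefSeq start on GRCm38.p6, written 5′ to 3′ on the strand of the gene. Capitals mark the TATA box (the letters TATAAA), the CCAAT box and the GC box (the letters GGGCGG) on either strand. These matches do not overlap each other in the windows shown. The Col1a2 window lies at chr6:4505368-4505667 on the plus strand, around a start 804 bases inside the deposited gene, and the Col3a1 window at chr1:45311288-45311587 on the plus strand.
Col1a2: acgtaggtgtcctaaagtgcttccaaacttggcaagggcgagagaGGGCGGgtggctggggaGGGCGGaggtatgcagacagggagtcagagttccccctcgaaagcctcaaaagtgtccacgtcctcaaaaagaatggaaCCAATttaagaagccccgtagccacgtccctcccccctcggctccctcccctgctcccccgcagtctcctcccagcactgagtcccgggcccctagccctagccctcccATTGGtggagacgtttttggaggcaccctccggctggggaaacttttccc
Col3a1: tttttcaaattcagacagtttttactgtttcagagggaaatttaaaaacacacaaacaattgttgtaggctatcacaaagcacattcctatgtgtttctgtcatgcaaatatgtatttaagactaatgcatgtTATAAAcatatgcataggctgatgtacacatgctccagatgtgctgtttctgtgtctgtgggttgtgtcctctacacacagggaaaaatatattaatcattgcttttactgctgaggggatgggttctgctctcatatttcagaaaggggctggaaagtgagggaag

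The windows differ in make-up. That of Col1a2 was 61.0% guanine and cytosine, with 13 CpG dinucleotides, 2 CCAAT boxes and 2 GC boxes, and that of Col3a1 was 37.7% guanine and cytosine, with no CpG and 1 TATA box. A CCAAT box on either strand stood in 37.4% of all 32851 windows of the table and in 13 of the 35 chains with a window. A GC box stood in 35.7% of all windows and in 22 of the 35, and a TATA box in 13.6% of all windows and in 5 of the 35. Among tested chains with a window, the GC box was found in 10 of the 14 that were lower and in 3 of the 4 that were higher. CAGACA, the letters of a Smad element, stood in 21.04% of all windows, in 4 of the 14 lower and in 3 of the 4 higher chains. An interferon-stimulated response element was matched in 3.44% of all windows and in 0 of the 35. For a chain with several windows, any of them counted, and a match is only a match of letters.

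The type V and type XI chains, which are built into the core of type I fibrils, differed in size of change. Col5a3 stood at 11.0, 8.67 and 10.3 FPKM in Ad-Con and at 5.99, 5.47 and 5.51 FPKM in the libraries labelled Ad-PDK4 (log2 fold change -0.80 ± 0.10 SE, adjusted p = 4.0e-04). Col11a1 stood at 3.79, 3.48 and 3.58 FPKM against 1.94, 2.06 and 1.98 FPKM (log2 fold change -0.83 ± 0.09 SE, adjusted p = 2.1e-04). Both groups lay apart for these genes, and their changes were close to those of Col1a2 and Col3a1. The widely expressed type V chains changed less. Col5a2 was lower at 75.4 ± 2.40 FPKM against 88.1 ± 3.35 FPKM in Ad-Con (SD, n = 3, log2 fold change -0.22, adjusted p = 0.00835 by limma). It lies tail to tail with Col3a1 on chromosome 1, 24614 bases away. Col5a1 was at 27.1, 26.8 and 24.6 FPKM against 21.8, 24.8 and 21.4 FPKM, with overlapping groups and a call at the threshold (log2 fold change -0.21, adjusted p = 0.0493). That call was lost when Ad-Con replicate 1 (-0.18, adjusted p = 0.143) or 2 (-0.19, 0.126) or Ad-PDK4 replicate 1 (-0.18, 0.152) or 3 (-0.17, 0.126) was left out, with no filter (adjusted p = 0.0981), after rescaling to TPM (0.0983) and without trend and robust moderation (0.0908). On the opposite strand Col5a1 shares up to 113 bases of exon with short noncoding transcripts that had at most 57 reads. Col11a2, the second type XI chain, was the only tested fibrillar chain with a positive estimate, at 0.345, 0.459 and 0.339 FPKM against 0.780, 0.878 and 0.490 FPKM. Its groups did not overlap, yet it missed the threshold (log2 fold change 0.74, 95% confidence interval 0.022 to 1.46, adjusted p = 0.0902). It passed the threshold with limma-voom on recovered reads (adjusted p = 0.00971) and without trend and robust moderation (0.0391). Its Ad-Con mean lay under the filter, so it was tested only through the other group.

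Among basement membrane chains, 6 of 8 were tested, of which 4 were lower and 2 higher, with a median log2 fold change of -0.33. Beside these counts, 20.8% of all tested genes were lower and 21.8% higher. The 4 lower chains include Col4a4, which passed the filter through Ad-Con alone. The type IV genes sit in head-to-head pairs, each pair on its own chromosome, and the pairs are described in turn. Their windows are printed because the members of a pair share or nearly share an upstream region. The windows are those of Col4a1 (chr8:11312777-11313076, minus strand), Col4a2 (chr8:11312555-11312854, plus strand), Col4a4 (chr1:82586800-82587099, minus strand), Col4a5 (chrX:141475169-141475468, plus strand) and Col4a6 (chrX:141474027-141474326, minus strand), on GRCm38.p6 from RefSeq with the same letters in capitals.
Col4a1: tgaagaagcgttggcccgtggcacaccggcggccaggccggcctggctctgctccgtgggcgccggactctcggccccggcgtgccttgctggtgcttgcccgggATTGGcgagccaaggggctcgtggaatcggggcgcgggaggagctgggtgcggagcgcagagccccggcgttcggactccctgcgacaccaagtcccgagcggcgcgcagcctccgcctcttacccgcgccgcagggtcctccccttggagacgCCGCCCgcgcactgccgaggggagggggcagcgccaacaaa
Col4a2: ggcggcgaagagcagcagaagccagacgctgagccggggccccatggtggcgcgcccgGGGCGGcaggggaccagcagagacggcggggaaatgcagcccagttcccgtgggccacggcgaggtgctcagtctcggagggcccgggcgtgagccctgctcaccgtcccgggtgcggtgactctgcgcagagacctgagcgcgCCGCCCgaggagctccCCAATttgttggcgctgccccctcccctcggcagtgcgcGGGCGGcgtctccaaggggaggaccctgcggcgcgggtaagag
Col4a4: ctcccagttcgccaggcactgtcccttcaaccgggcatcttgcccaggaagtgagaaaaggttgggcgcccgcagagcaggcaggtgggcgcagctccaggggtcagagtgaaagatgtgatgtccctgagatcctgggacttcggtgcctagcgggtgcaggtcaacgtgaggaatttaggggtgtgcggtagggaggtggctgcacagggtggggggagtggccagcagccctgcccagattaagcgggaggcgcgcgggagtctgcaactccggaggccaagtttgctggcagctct
Col4a5: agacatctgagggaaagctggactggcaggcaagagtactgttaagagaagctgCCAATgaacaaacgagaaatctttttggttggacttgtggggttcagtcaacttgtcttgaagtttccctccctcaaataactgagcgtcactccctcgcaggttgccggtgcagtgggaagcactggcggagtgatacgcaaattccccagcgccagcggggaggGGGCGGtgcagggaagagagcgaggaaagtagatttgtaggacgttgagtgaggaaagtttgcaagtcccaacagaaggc
Col4a6: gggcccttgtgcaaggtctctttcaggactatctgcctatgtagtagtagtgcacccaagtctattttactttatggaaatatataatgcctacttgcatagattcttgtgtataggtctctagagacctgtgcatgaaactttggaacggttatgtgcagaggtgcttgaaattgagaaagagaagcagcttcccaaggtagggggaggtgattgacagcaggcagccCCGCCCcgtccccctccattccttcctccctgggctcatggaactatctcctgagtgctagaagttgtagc
Col4a1 and Col4a2 start so close that their first exons overlap by 22 bases on opposite strands. Both windows are rich in guanine and cytosine, at 74.0% and 73.7%. The Col4a4 window, with none of the 3 motifs, also spans the start of Col4a3, with 71 bases between the genes. Col4a6 and Col4a5 start 1308 bases apart on the X chromosome, so their windows share no sequence. Each of these holds 1 GC box, and the CCAAT box is in the Col4a5 window alone.

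The pairs moved differently. Col4a1 and Col4a2, the chains of the type IV network found in nearly all basement membranes, were both lower: Col4a1 went from 77.6, 74.5 and 75.9 FPKM to 57.2, 59.0 and 56.8 FPKM (log2 fold change -0.40 ± 0.04 SE, adjusted p = 2.7e-04). Col4a2 went from 65.3, 61.1 and 57.4 FPKM to 39.5, 44.4 and 41.2 FPKM (log2 fold change -0.55 ± 0.07 SE, adjusted p = 4.1e-04). Neither gene had overlapping groups.

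Col4a4, known with Col4a3 from the filter of the kidney and from Alport syndrome, was low and lower still in the libraries labelled Ad-PDK4: 179, 169 and 145 reads (0.829, 0.907 and 0.754 FPKM) against 37, 37 and 57 reads (0.192, 0.199 and 0.243 FPKM). Its log2 fold change was -1.58 ± 0.30 SE (adjusted p = 0.00393), and it passed the filter through Ad-Con alone. With a pseudocount of 1 the log2 fold change was -0.59 (adjusted p = 0.00216). Col4a3 fell just under the filter at a mean of 0.363 FPKM, with 127, 108 and 104 reads in Ad-Con and 20, 17 and 34 reads in the libraries labelled Ad-PDK4. Fitted with no filter, it was also lower (log2 fold change -1.69 ± 0.24 SE, adjusted p = 0.00301). The groups lay apart for both genes.

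Col4a5 and Col4a6, which form the type IV network of smooth muscle basement membranes together with other chains, went opposite ways. Col4a5 was at 15.7, 15.8 and 14.8 FPKM in Ad-Con and at 22.8, 21.6 and 25.7 FPKM in the libraries labelled Ad-PDK4, higher in all 3 (log2 fold change 0.59 ± 0.07 SE, adjusted p = 4.6e-04). Col4a6 was at 15.1, 16.3 and 14.5 FPKM and at 12.4, 12.9 and 12.7 FPKM, lower in all 3 (log2 fold change -0.27 ± 0.06 SE, adjusted p = 0.00865). All 5 tested type IV chains kept these calls in every alternative that could be run for them.

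The 2 remaining basement membrane chains are multiplexins, proteoglycan collagens of the basement membrane zone. Col18a1, from which endostatin is cut, was at 2.14, 2.11 and 2.37 FPKM in Ad-Con and at 3.01, 3.17 and 2.66 FPKM in the libraries labelled Ad-PDK4, without overlap (log2 fold change 0.40 ± 0.10 SE, adjusted p = 0.0171). This call was lost when Ad-Con replicate 1 (0.38, adjusted p = 0.0556), Ad-Con replicate 2 (0.37, 0.0513) or Ad-PDK4 replicate 1 (0.38, 0.0603) was left out. Col15a1 was under the filter, with 16, 24 and 12 reads in Ad-Con and 1, 0 and 0 reads in the other group. The summed reads, 52 against 1, gave a depth-scaled ratio of Ad-Con over the other group of 53.6, with an exact 95% interval of 9.21 to 2158 that covers counting error only, and the fit with no filter gave an adjusted p of 0.0213.

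Of the 25 chains of other types, 11 were tested: 6 were lower, 3 higher and 2 not past the threshold, with a median log2 fold change of -0.22. Over all tested genes, 20.8% were lower and 21.8% higher. All 3 tested chains of type VI were lower. Col6a1 went from 102, 121 and 103 FPKM to 79.0, 81.6 and 82.2 FPKM (log2 fold change -0.42 ± 0.07 SE, adjusted p = 0.0023). Col6a2 went from 19.4, 22.6 and 19.6 FPKM to 16.3, 18.4 and 15.99 FPKM (log2 fold change -0.28 ± 0.08 SE, adjusted p = 0.026). Neither overlapped, but the Col6a2 call was lost when Ad-Con replicate 2 (-0.21, adjusted p = 0.0767) or Ad-PDK4 replicate 1 (-0.25, 0.0867) or 3 (-0.24, 0.0741) was left out, with no filter (0.0584) and without trend and robust moderation (0.0564). Col6a3 (chr1:90765923-90843971, minus strand), the chain that joins Col6a1 and Col6a2 in the classical type VI trimer, had the most negative fitted log2 fold change of the tested chains, an order that depends on the pseudocount. It was at 1.996, 2.50 and 1.798 FPKM in Ad-Con and at 0.418, 0.525 and 0.435 FPKM in the libraries labelled Ad-PDK4, with 390 to 526 reads against 91 to 115 reads. The log2 fold change was -1.97 ± 0.19 SE (adjusted p = 1.2e-04), a fitted factor of 3.91, and the gene passed the filter through Ad-Con. With a pseudocount of 1 its log2 fold change was -1.08, smaller in size than the -1.28 of Col1a1.

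The FACIT chains had no common direction. Col12a1 and Col14a1, related collagens of the fibril surface, moved apart. Col12a1 (chr9:79598991-79718831, minus strand) was higher, from 2.0, 1.81 and 1.85 FPKM to 3.31, 3.26 and 3.82 FPKM (log2 fold change 0.84 ± 0.10 SE, adjusted p = 4.4e-04). Col14a1 was lower, from 2.58, 2.48 and 2.42 FPKM to 1.05, 1.198 and 1.48 FPKM (log2 fold change -0.96 ± 0.14 SE, adjusted p = 0.00115). Both had clearly separate groups. Col16a1 was lower by little, at 13.5 ± 0.491 FPKM against 15.2 ± 0.397 FPKM (SD, n = 3, log2 fold change -0.18, adjusted p = 0.0305 by limma). Its call did not hold without any 1 of the 3 Ad-Con libraries (adjusted p = 0.105, 0.0797 and 0.0545), without Ad-PDK4 replicate 1 (0.102) or 3 (0.0673), with no filter (0.0555) or as TPM (0.0817), at values from -0.20 to -0.14. Col9a3, a type IX chain of cartilage, was at 0.686 ± 0.288 and 0.557 ± 0.125 FPKM, and Col20a1 at 0.666 ± 0.174 and 0.548 ± 0.0894 FPKM (SD, n = 3). Their groups overlapped, and neither passed limma's test (adjusted p = 0.672 and 0.563), with 95% confidence intervals of -1.004 to 0.60 and -0.87 to 0.43 on the log2 scale. The Col9a3 estimate of -0.20 turned to 0.048 without Ad-Con replicate 3. Col20a1 shares 79 bases of exon with a transcript on its own strand that had up to 225 reads, so its value is uncertain.

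A further 3 chains outside these families passed the test. Col8a1, the type VIII chain of vessel walls, was higher, from 12.3, 11.6 and 10.4 FPKM to 17.04, 17.1 and 18.9 FPKM (log2 fold change 0.63 ± 0.08 SE, adjusted p = 4.4e-04). Col28a1 (chr6:7997808-8192617, minus strand), a collagen with von Willebrand factor A domains, was higher, from 1.002, 1.28 and 0.776 FPKM to 2.23, 2.13 and 2.40 FPKM (log2 fold change 1.10 ± 0.18 SE, adjusted p = 0.00193). Col7a1, the chain of anchoring fibrils in skin, was lower, from 1.97, 1.61 and 1.79 FPKM to 1.14, 0.966 and 0.955 FPKM (log2 fold change -0.75 ± 0.14 SE, adjusted p = 0.00417). Groups lay apart for each of the 3.

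The other 19 chains had a mean of 0.363 FPKM or less and at most 127 reads in any library. The cartilage collagens Col2a1, Col10a1, Col9a1 and Col9a2 were among them, with at most 8 reads, as were the transmembrane chains Col13a1, Col17a1, Col23a1 and Col25a1, with at most 21 reads. Col13a1, Col25a1 and Col26a1 had no read in any library, and Col9a1 and Col22a1 had at most 2 reads. The groups did not overlap in 6 of the 19, beside 12.7% of all 11779 genes under the filter with at least 1 read: Col4a3 and Col15a1 described above, Col6a6, Col17a1, Col19a1 and Col2a1. That share leaves out genes without a read, while the 19 include Col13a1, Col25a1 and Col26a1. Col19a1, a FACIT chain, had 6, 7 and 11 reads in Ad-Con and 21, 23 and 25 reads in the libraries labelled Ad-PDK4, and with no filter it did not pass (log2 fold change 0.76, adjusted p = 0.119). Col6a6, a further type VI chain, had 12, 22 and 17 reads and 4, 5 and 6 reads (log2 fold change -0.63, adjusted p = 0.164), and shares 3.71% of its 50-base words with other genes, among them Col6a5. Col17a1, a component of hemidesmosomes, had 9, 5 and 5 reads and 1, 1 and 2 reads, and with no filter it did not pass (log2 fold change -0.50, adjusted p = 0.127). Col2a1 had 3, 3 and 1 reads in Ad-Con and 5, 3 and 6 reads in the other group. Its groups thus met at 3 reads and lay apart only after scaling to FPKM. The rest, the fibrillar Col24a1 and Col27a1, the short-chain Col8a2, and Col6a4, Col6a5, Col9a2, Col10a1 and Col23a1, had overlapping groups and no test past the threshold.

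Summed over all 44 chains, collagen FPKM was 2003, 2020 and 1881 in Ad-Con and 1023, 1152 and 1036 in the libraries labelled Ad-PDK4. As a share of the summed FPKM of all genes this was 0.629 ± 0.0269% and 0.352 ± 0.0219% (SD, n = 3), without overlap. Col1a1 made up 69.1% of the net difference in the sum, Col1a2 14.9% and Col3a1 6.72%. Leaving Col1a1 out, an alternative chosen after the values were seen, the share was 0.293 ± 0.0119% and 0.209 ± 0.00667%. The make-up shifted with it: type I chains held 69.4 ± 0.198% of the collagen FPKM in Ad-Con and 57.1 ± 1.86% in the libraries labelled Ad-PDK4. Type III held 6.82 ± 0.0877% and 6.91 ± 0.190%, with overlapping groups. Other types took larger parts. Type IV went from 8.61 ± 0.207% to 12.7 ± 0.629%, type V from 6.32 ± 0.221% to 9.71 ± 0.354% and type VI from 6.69 ± 0.545% to 9.22 ± 0.417%, although the summed basement membrane FPKM was itself 172 ± 5.57 and 139 ± 3.22. Parts of a sum move together and carry no test here.

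**Figure D3:**
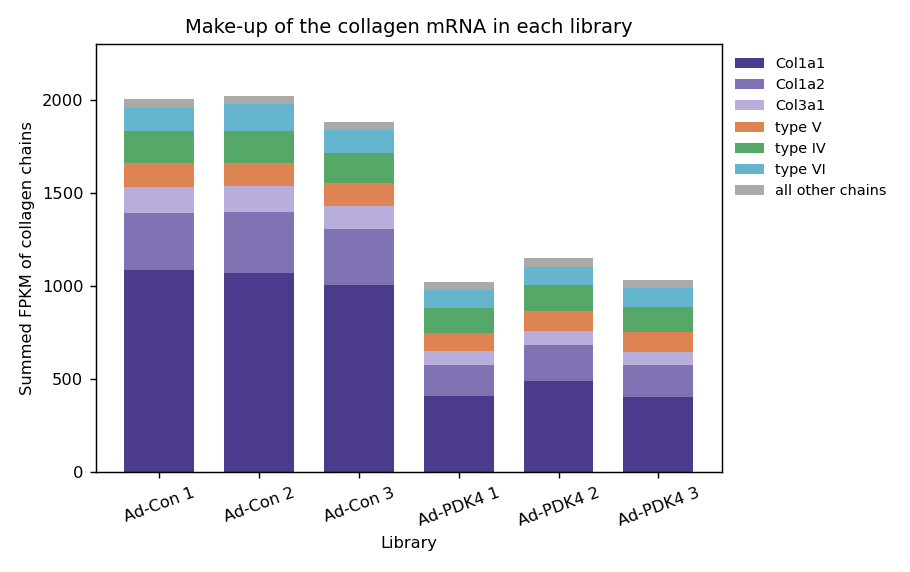
Summed FPKM of the 44 collagen chains (vertical) in each of the 6 libraries (horizontal), split into Col1a1, Col1a2, Col3a1, types V, IV and VI and all other chains. The 3 Ad-Con libraries reach 1881 to 2020 and the 3 labelled Ad-PDK4 reach 1023 to 1152, with the Col1a1 segment changing most.

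Ratios between chains show whether partners moved in step. Of 9 planned ratios 8 were computed (Col8a2 was under the filter), each tested over its 3 libraries against 3 by exact permutation, two-sided, which cannot go below p = 0.1. Col1a1 per Col1a2 was 3.52, 3.29 and 3.39 in Ad-Con and 2.42, 2.59 and 2.34 in the libraries labelled Ad-PDK4, without overlap (exact p = 0.1, adjusted over the 8 ratios 0.114). The level of this ratio depends on gene length, since the deposited Col1a2 length is longer than its longest coding transcript. Per length of the longest coding transcript, a rescaling added after the data were seen, it was 1.62 ± 0.0565 and 1.17 ± 0.0612 (SD), with the same relative change. Col4a5 per Col4a6 changed from 1.01 ± 0.0347 to 1.85 ± 0.174 (SD), a log2 difference of 0.86. Col6a3 per Col6a1 changed by -1.54 on the log2 scale, and Col11a1 per Col5a1 by -0.62. Col6a3 passed the filter only through Ad-Con, where it is high, so nothing is read from the size of the Col6a3 ratio.

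Smaller shifts without overlap were seen in Col3a1 per Col1a1 (log2 difference 0.42), Col4a1 per Col4a2 (0.16) and Col6a1 per Col6a2 (-0.14), each also at the smallest p the test allows. Col5a1 per Col5a2 was the exception among the 8, at 0.297 ± 0.00959 and 0.301 ± 0.0214 with overlapping groups (exact permutation p = 0.9). Col4a3 per Col4a4, added after the data were seen because Col4a3 was under the filter, was 0.733 ± 0.0459 and 0.567 ± 0.0734 (exact permutation p = 0.3).

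**Figure D4:**
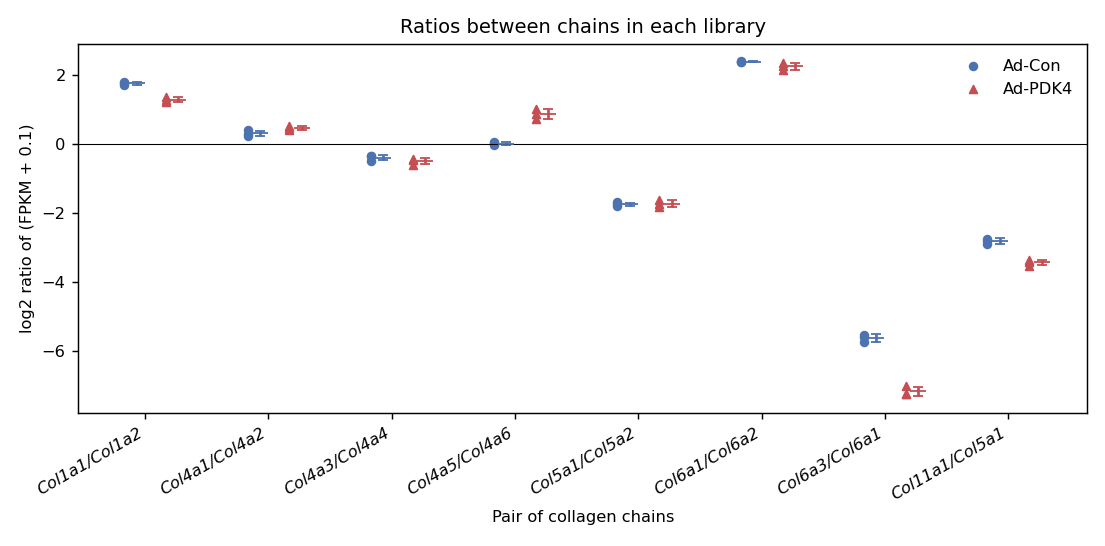
Log2 ratio of FPKM + 0.1 (vertical) for 8 pairs of chains (horizontal) in each Ad-Con library (circles) and each library labelled Ad-PDK4 (triangles), with mean and SD beside the points. Col4a5/Col4a6 moves up by 0.86 and Col6a3/Col6a1 down by 1.54 in log2 units, while Col5a1/Col5a2 overlaps. Col6a3 passed the filter only through Ad-Con, where it is high.

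The genes that act on collagen after transcription did not share one direction. Of 17 tested genes for folding and modification, 6 were lower and 4 higher, where 20.8% of all tested genes were lower and 21.8% higher (median log2 fold change -0.10). P4hb, the subunit shared by the prolyl 4-hydroxylases, was lower (-0.54, adjusted p = 6.4e-05), as were the lysyl hydroxylase Plod1 (-0.48) and P4ha3 (-0.43). The catalytic subunit P4ha1 was higher, from 46.2, 50.3 and 47.2 FPKM to 88.9, 88.4 and 95.2 FPKM (0.92, adjusted p = 1.0e-05), and so were Plod3 (0.39) and Serpinh1 (0.37), the collagen chaperone HSP47. The prolyl hydroxylase subunits thus went both ways.

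For secretion and propeptide removal, 4 of 14 tested genes were lower and 4 higher (median 0.0068), again beside 20.8% and 21.8% of all tested genes. Pcolce2, which enhances cleavage of the C-terminal propeptide, fell by 2.06 on the log2 scale, from 8.28, 7.24 and 7.62 FPKM to 1.72, 1.95 and 1.66 FPKM (adjusted p = 2.4e-06), while its relative Pcolce was higher (0.46). Adamts2, which removes the N-terminal propeptide (-0.85), and Bmp1, which removes the C-terminal one (-0.59), were lower. The Bmp1 relative Tll1 (1.96) and the coat protein Sec13 (0.25) were higher.

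Of 14 tested genes for cross-linking and fibril assembly, 5 were lower and 5 higher (median -0.0044), with the same 20.8% and 21.8% over all tested genes. The count of higher genes was 3 when Ad-Con replicate 1 or Ad-Con replicate 3 was left out. Fn1, the fibronectin on which collagen is laid down, was lower, at 225 ± 18.8 FPKM against 507 ± 39.9 FPKM (SD, n = 3, log2 fold change -1.17, adjusted p = 2.0e-05 by limma). The fibril-binding proteins Lum (-1.16) and Tnxb (-0.88) were lower too. Lox, which starts collagen cross-links, was higher, at 148 ± 7.45 FPKM against 79.8 ± 3.71 FPKM (0.89, adjusted p = 1.4e-05 by limma). Higher too were Dcn, a fibril-binding proteoglycan (0.83), and Loxl3 (0.74). The other Lox relatives did not move together: Loxl2 was lower (-0.60), Loxl4 was higher (0.25) and Loxl1 did not pass (-0.058). Of 7 receptor and uptake genes 2 were lower and 1 higher, near the shares over all tested genes: the integrin subunits Itga10 (-0.88) and Itga2 (-0.86) were lower and the collagen receptor Ddr1 was higher (0.36).

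Among 13 tested genes of collagen breakdown, 5 were lower and 2 higher (median -0.11, all tested genes 20.8% and 21.8%). Mmp2, a gelatinase, was lower, at 135 ± 5.18 FPKM against 321 ± 27.8 FPKM (SD, n = 3, log2 fold change -1.25, adjusted p = 6.5e-06 by limma), as were the membrane-bound Mmp15 (-1.06) and Mmp14 (-0.67). Inhibitors of these enzymes went both ways. Timp2, the most abundant of them, was lower, at 515 ± 7.07 FPKM against 754 ± 36.7 FPKM (-0.55). Timp1 was higher, at 277 ± 7.92 FPKM against 77.9 ± 4.64 FPKM (1.83), as was Timp3 at 69.8 ± 1.56 FPKM against 23.3 ± 1.26 FPKM (1.58).

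TGF-beta is a known inducer of fibrillar collagen genes. Its list held 18 tested genes: ligands, carriers, receptors, Smads, corepressors of the pathway and target genes. Of these 9 were higher and 3 lower (median 0.17, all tested genes 21.8% and 20.8%). The list mixes activators with inhibitors, and the inhibitory Smad7 (0.44) and the corepressor Ski (0.33) were among the 9 higher. The count thus gives no direction of TGF-beta input. Ltbp2 (2.59), a relative of the latent TGF-beta carriers, and the co-receptor Tgfbr3 (0.66) were among the higher genes. Ltbp2 had a mean of 0.365 FPKM in Ad-Con and 2.68 FPKM in the libraries labelled Ad-PDK4. It thus passed the filter only through the group where it is high, and nothing is read from its place in the count. Ltbp4 (-1.81), which carries latent TGF-beta, the ligand Tgfb1 (-0.34) and the receptor Tgfbr1 (-0.30) were lower. All of these passed an adjusted p of 0.05.

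**Figure D5:**
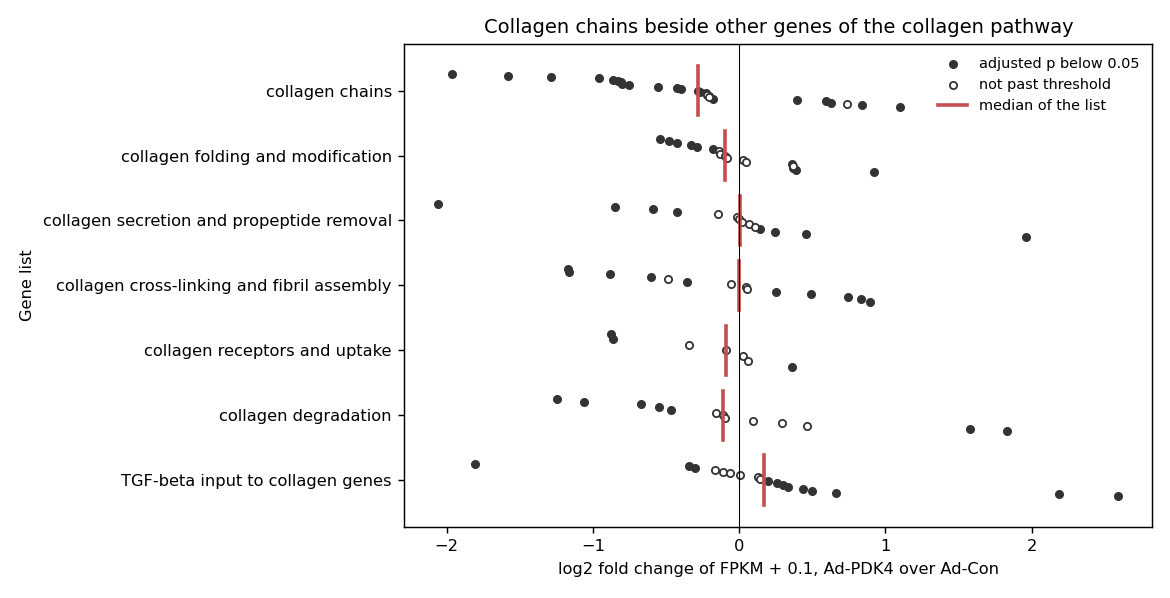
Log2 fold change of FPKM + 0.1 in the libraries labelled Ad-PDK4 over Ad-Con (horizontal) for the tested genes of the collagen chains and of 6 lists of the collagen pathway (vertical). Filled points passed an adjusted p of 0.05 and red bars are medians, from -0.28 for the chains to 0.17 for the TGF-beta list.

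Markers of the labelled cell type and of other cells moved as well. The 10 smooth muscle markers summed to 172 to 173 FPKM in Ad-Con and 135 to 145 FPKM in the libraries labelled Ad-PDK4. Most of the sum was Acta2, Cald1 and Tpm2. Tagln, Cnn1, Myh11 and Des were low, at means of 0.341, 0.466, 0.0141 and 0.186 FPKM in Ad-Con. In the libraries labelled Ad-PDK4 their means were 0.292, 0.247, 0.0456 and 0.0468 FPKM. The cell type is therefore given as the study names it, and these markers do not establish it. Of the 5 tested, Acta2 (-1.11 on the log2 scale) and Tpm2 (-0.33) were lower and Cald1 was higher (0.36), while Smtn (0.018) and Lmod1 (-0.29) did not pass. The rest were under the filter: Tagln and Myh11 had 4 to 20 and 2 to 10 reads, and Cnn1, Mylk and Des had 8 to 30, 24 to 188 and 3 to 16 reads. The 8 fibroblast markers, which include the collagen-binding Dcn and Lum, summed to 305 to 357 FPKM and 252 to 295 FPKM. Of the 5 tested, Dpt (192 ± 20.03 against 74.1 ± 2.73 FPKM, -1.36) and Lum (-1.16) were lower and Dcn was higher (0.83), while Pdgfra (-0.046) and Fbln1 (0.18) did not pass. The 10 macrophage markers summed to 13.3 to 16.4 FPKM and 3.69 to 5.50 FPKM, nearly all of it Cd68, while Ptprc, Tyrobp, C1qa, C1qb, C1qc and Itgam had 0 reads in every library. The 6 endothelial markers (0.617 to 0.798 and 0.885 to 1.18 FPKM, Tie1 at 0) and the 4 pericyte markers (1.19 to 1.40 and 0.325 to 0.490 FPKM) were low. The part of smooth muscle, fibroblast and pericyte markers in the collagen differences was not tested.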

How the data were processed

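RNA of 6 libraries, 3 a group, was measured. The authors deposited 1 table of FPKM per gene and library, unpooled, with the gene lengths they used. The submitters' processing notes name CASAVA 1.8, fastp, HISAT2 2.0.5, featureCounts 1.5.0-p3 and GRCm39, yet all 44 collagen genes had their GENCODE M21 (GRCm38) coordinates, which are used here. Strand use in counting is not given in the sources used here, and the labels name a SMARTER kit where the methods name NEBNext Ultra. Overlapping exons were listed for this reason. FPKM times length gave whole reads for all non-zero values within 0.01 reads.

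limma 3.58.1 (R 4.3.3) compared log2(FPKM + 0.1) of the 2 groups without covariates, with trend and robust moderation and Benjamini-Hochberg adjustment over the 13423 genes with a mean of at least 0.5 FPKM. Every fold change is on that scale, which understates low genes, and every adjusted p is limma's unless named otherwise. The study itself used a count model with a fold limit of 2. The main test here was on the deposited unit, FPKM, and recovered reads entered an alternative. Chain ratios were tested by exact permutation (scipy 1.17.1). The scripts were tested on simulated data. There the share of false calls among limma's calls, with trend and robust moderation, was above the adjusted p threshold. How these false calls were spread over gene length and read number is not given here. Calls close to the threshold are therefore less certain than their adjusted p reads.

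Every tested chain is named. Of each pathway list up to 3 rises and 3 falls past the threshold are named by size, except 1 gene of the TGF-beta list that is not reported here. Timp2, Loxl1, Loxl2, Loxl4, Smad7, Ski and the marker genes other than those at 0 lie outside this rule, picked with their values known. The members, lists and tests were chosen with earlier results of these data known. Ccn2 was found under an older symbol and 1 gene of the breakdown list was not found. Alternatives were pseudocounts of 1 and 0.01, no filter, a minimum of 5 FPKM, TPM, median-of-ratios and quantile scaling, no trend or robust moderation, limma-voom on recovered reads, a replicate block and leaving out each library.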

Additional observations from a re-analysis of the deposited data

How the results depend on the processing

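Replicate numbers are shared between the groups, but same-numbered libraries did not deviate together (correlations of their deviations -0.046, -0.031 and -0.0013). Such correlations cannot show whether these libraries shared a culture or preparation. No pairing was assumed in the main test. With the number as a replicate block, 5 chains were higher and 17 lower, with a median of -0.28, and over all genes 2759 were higher and 2626 lower. At a minimum of 5 FPKM, 14 chains were tested, 2 were higher, 12 lower and 1 met the fold limit. A pseudocount of 1 left 2 chains at the fold limit. Leaving out 1 library gave 2 to 5 chains at the fold limit, the lowest without Ad-Con replicate 3, where Col28a1 was at 0.93 (Col4a4 was under the filter whenever an Ad-Con library was left out), 4 to 5 higher chains and 13 to 17 lower ones. The difference in the collagen share, -0.277 percentage points among all genes, was -0.302 points among protein-coding genes, -0.313 without the mitochondrial chromosome, -0.689 as a share of reads and -0.0834 without Col1a1 (added after the data were seen). The log2 ratio Col5a1/Col5a2 ranged from -0.036 to 0.066 when 1 library was left out and was -0.0049 without Ad-Con replicate 3, and the Col9a3 fold change ranged from -0.52 to 0.048, the highest again without that library. TPM gave 5 higher and 15 lower chains, no filter 5 and 16 of 41, and limma-voom 6 and 17. Calls of Col5a1, Col6a2, Col16a1, Col18a1 and Col11a2 depended on the setting as given with each gene, for causes that were not tested, and the other 20 tested chains kept their side of the threshold wherever they could be fitted. Depth limits the 19 chains under the filter, for which only large differences could be seen.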
